A study of Mus musculus with 8 samples.

Results

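The genes described here are 40 ribosome biogenesis and nucleolar genes, and 39 of them were found among the 11854 named entries of the gene table. They were named by symbol under a rule that uses no measured value, though with earlier results of these data known. All 39 were read in all 8 libraries and all 39 passed the filter on low values, so no member was lost to it. Utp4, a small subunit processome protein, was not found under that symbol. An entry under its older symbol Cirh1a, which is not counted as a member, averaged 186 ± 66.8 normalised reads (reads divided by the size factor of the library) in libraries of the knockout label and 203 ± 45.6 in wild type libraries (SD, n = 4 each; limma adjusted p = 0.815).

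Ribosomes are built in the nucleolus. RNA polymerase I transcribes the long precursor of the ribosomal RNAs, small nucleolar ribonucleoproteins (snoRNPs) of the box C/D and box H/ACA classes methylate and pseudouridylate it, and assembly factors fold and cut it into the small and the large subunit. Many of these genes are known targets of MYC, and blood stem cells at rest are known for a low rate of protein synthesis.

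The cells were haematopoietic stem cells (HSCs), the self-renewing source of the blood lineages, sorted from mouse bone marrow and sequenced as bulk polyadenylated RNA. Libraries came from 4 mice labelled Nupr1-/- and from 4 wild type mice, 1 library each, all of strain C57BL/6 and with no drug or other agent in the labels. The first are called KO-labelled libraries here. Nupr1 encodes a small stress-induced chromatin protein, and the comparison asks what differs in stem cell transcripts between these genotypes. The sort markers, the age and sex of the mice and the deleted part of Nupr1 are not given in the sources used here.

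Reads recovered from the deposited values numbered 2296101 to 3959564 in KO-labelled libraries and 3340217 to 4769401 in wild type libraries. Nupr1 itself was read at 179.4, 173.3, 200.6 and 118.5 normalised reads in KO-labelled libraries 1 to 4, against 285.5, 134.0, 245.3 and 318.2 in wild type libraries 1 to 4, and the groups overlapped (log2 change -0.50 ± 0.34 SE, limma adjusted p = 0.433). The targeted gene therefore does not check the labels, and every direction below is that of the KO-labelled libraries. Xist, the RNA of the inactive X chromosome in females, was 107.2 to 159.3 in KO-labelled libraries and 0 to 11.8 in wild type libraries. Kdm5d, a gene of the Y chromosome, was read in all 8 libraries, with 11.5 to 25.9 in KO-labelled libraries and 19.9 to 68.2 in wild type libraries, and overlapped (limma adjusted p = 0.461). A part of sex in the differences cannot be told apart from the genotype label. On the first principal component, wild type library 2 lay far from the other 7 (score 126.5, against -36.9 to -0.8, with 25.6% of the variance). Of 17 genes of an HSC list, 16 were tested. The list also holds Cd48, Cd34 and Flt3, which are low in HSCs, so its sum is not a level of HSC genes alone. The summed level of the 17 was 10160 to 12898 in KO-labelled libraries and 11161 to 14814 in wild type libraries. Mllt3, a regulator of stem cell maintenance, was the member of that list that fell (838 in KO-labelled libraries and 1399 in wild type libraries on average, limma adjusted p = 0.0440). Its call held in 1 of 8 fits without 1 library, and its log2 change was -0.74, and -0.19 with the trend in GC content and transcript length removed (limma adjusted p = 0.767). Mecom, Procr and Hlf, also HSC genes, were lower by value at an unadjusted p under 0.05 and did not pass (limma adjusted p of 0.105 to 0.191). The list as a whole was split, with 8 of the 16 tested genes above 0. Its median log2 change was 0.03, and -0.0095 with the GC and length trend removed.

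Of the 39 ribosome biogenesis genes 2 passed the test, both higher. Nop56, a core protein of the box C/D snoRNP, and Mybbp1a, a nucleolar MYB-binding protein, were each about 2.0-fold higher in KO-labelled libraries. No member was called lower, and 37 did not pass (limma, two-sided, Benjamini-Hochberg adjusted p under 0.05 over all genes tested). The share called, 5.13%, stood near the background of 3.80% of the 10989 genes tested, of which 1.68% were higher and 2.12% lower. On the recovered reads edgeR called 2 members, both higher (background 3.10%), and DESeq2 called 4 (background 7.39%), adding Wdr43 and Gnl3 as lower. In bulk RNA, fewer cells of a type and less RNA per cell cannot be told apart.

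Below the threshold the members leaned to higher values with many exceptions. At an unadjusted p under 0.05 stood 12 members (7 higher, 5 lower), which is 30.8% of them against 19.7% of all genes tested (9.91% higher, 9.75% lower). Log2 changes above 0 were found in 26 of 39 members, or 66.7%, against 51.3% of all genes, and the median log2 change was 0.32 over the members and 0.03 over all genes (0.15 over the members with the GC and length trend removed). The ranges of the groups did not overlap in 6 members, which is 15.4% against 11.7% of all genes (5.78% higher, 5.91% lower). Nop56, Mybbp1a and Ppan were higher without overlap, and Wdr43, Gnl3 and Nop10 were lower without overlap. Single log2 changes spanned -1.23 in Gar1 to 1.06 in Rrp1b.

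**Figure D1:**
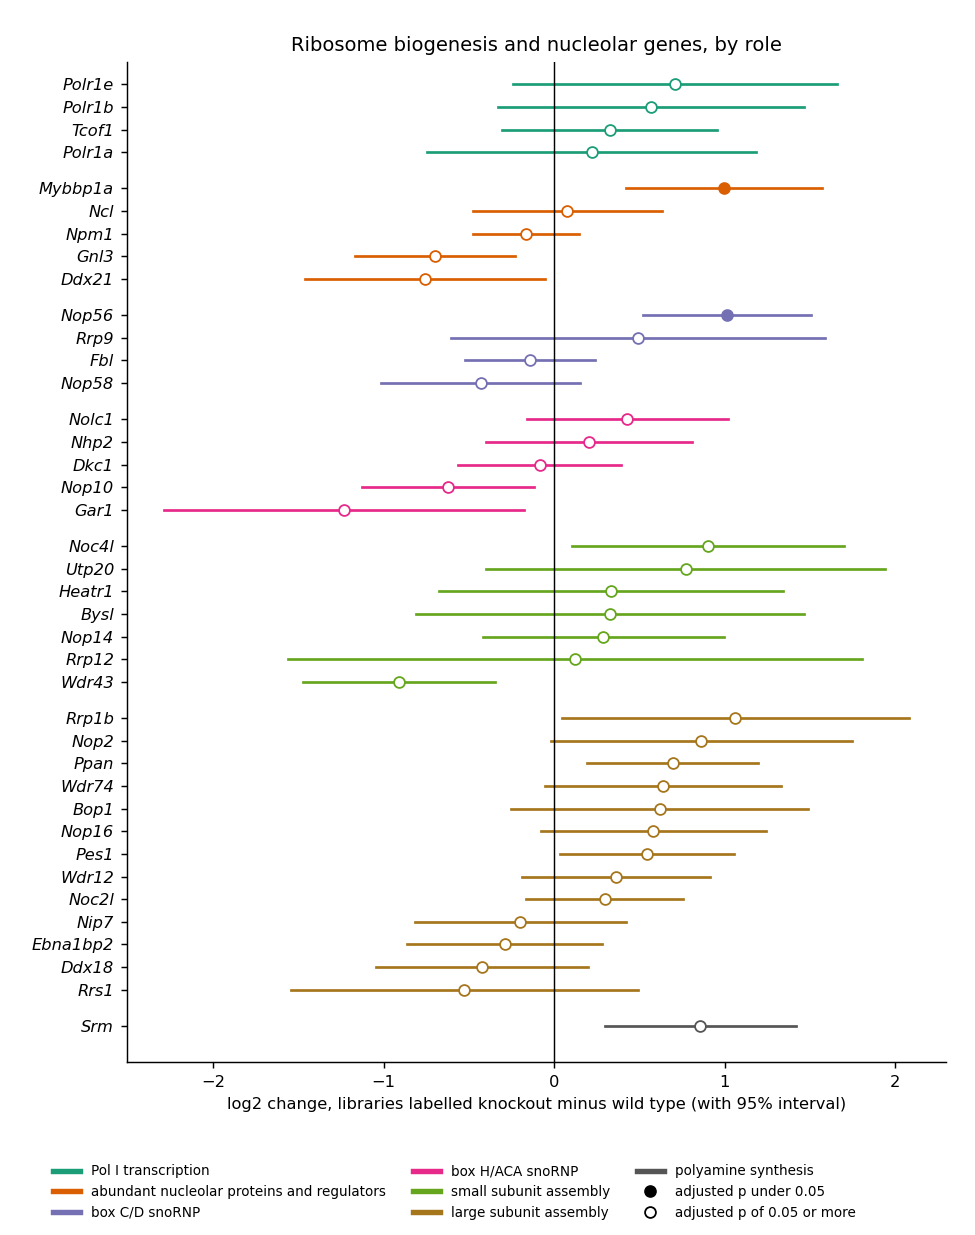
Log2 change of each of the 39 genes, KO-labelled libraries minus wild type, on the log2(value + 1) scale with its 95% limma interval, grouped by role. Filled points mark Nop56 and Mybbp1a, which passed the test, and changes above and below 0 occur in 5 of the 7 roles.

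The box C/D snoRNP carries guide RNAs of the same class and methylates ribosomal RNA. Of its 4 members, Nop56 rose and the other 3 did not pass. Nop56 lies at chr2:130274430-130279313 on the plus strand of mm10 (GENCODE M21, protein-coding). Nop56 was read at 982.9, 915.2, 742.2 and 967.6 normalised reads in KO-labelled libraries 1 to 4, against 438.0, 637.5, 468.6 and 295.5 in wild type libraries 1 to 4. The lowest library labelled knockout lay above the highest wild type library. The means were 902 ± 110.4 in KO-labelled libraries and 459.9 ± 140.4 in wild type libraries (SD, n = 4 each), a log2 change of 1.01 ± 0.24 (SE; 95% interval 0.52 to 1.51; limma adjusted p = 0.0257; exact permutation p = 0.0286, the smallest that 70 assignments can give).

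Leaving out 1 library at a time, the call of Nop56 held in 2 of 8 fits. Its limma adjusted p was 0.0455 without KO-labelled library 3 (a fit that called 1.38% of genes) and 0.00311 without wild type library 2 (8.15% of genes). It was 0.0853, 0.0773 and 0.0632 without KO-labelled libraries 1, 2 and 4, and 0.0588, 0.0597 and 0.0732 without wild type libraries 1, 3 and 4. With the trend in GC content and transcript length removed from each library, the log2 change of Nop56 was 0.91 (limma adjusted p = 0.133).

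Nop58, the partner of Nop56 in the same particle, had 297.5, 370.3, 192.6 and 247.2 normalised reads in KO-labelled libraries, against 330.0, 446.4, 278.2 and 426.3 in wild type libraries. Its groups overlapped and its log2 change of -0.43 ± 0.28 (SE) did not pass (limma adjusted p = 0.413), and was 0.10 with the GC and length trend removed. Fbl, which encodes fibrillarin, the methyltransferase of the particle, had 907.1, 805.5, 825.2 and 865.7 in KO-labelled libraries, against 965.8, 1111.5, 894.4 and 808.0 in wild type libraries. Its log2 change was -0.14 ± 0.18 (SE; limma adjusted p = 0.708), and the wild type values were the more spread (SD 45.1 in KO-labelled libraries and 128 in wild type libraries). With the GC and length trend removed, the log2 change of Fbl was -0.54 (limma adjusted p = 0.280, unadjusted 0.0144). Rrp9, a protein of the U3 snoRNP, had the widest spread within groups of all members, with 150.2, 195.8, 119.3 and 56.5 in KO-labelled libraries, against 41.8, 184.3, 52.8 and 122.4 in wild type libraries. The Rrp9 ranges overlapped almost throughout (log2 change 0.49 ± 0.52 SE, limma adjusted p = 0.640).

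The proportion of Nop56 to the other core transcripts is given beside these levels. The ratio of Nop56 to Nop58 reads was 3.30, 2.47, 3.85 and 3.91 in KO-labelled libraries, against 1.33, 1.43, 1.69 and 0.693 in wild type libraries. All 4 KO-labelled libraries were above all 4 wild type libraries, with means of 3.39 ± 0.668 and 1.28 ± 0.421 (SD, n = 4 each). On the log2 scale the ratios differed by 1.45 (exact permutation p = 0.0286, the smallest possible). Adjusted over the 15 within-complex pairs compared, a comparison added after the values had been seen, p was 0.214, so the ratio did not pass. With the GC and length trend removed the difference was 0.82 (exact permutation p = 0.0571). The ratio of Nop56 to Fbl was 1.08, 1.14, 0.899 and 1.12 in KO-labelled libraries, against 0.454, 0.574, 0.524 and 0.366 in wild type libraries, also without overlap. Its log2 difference was 1.16 (exact permutation p = 0.0286, adjusted over the 15 pairs 0.214) and 1.45 with the GC and length trend removed. These are proportions of reads, which compare libraries and do not give molar ratios.

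**Figure D2:**
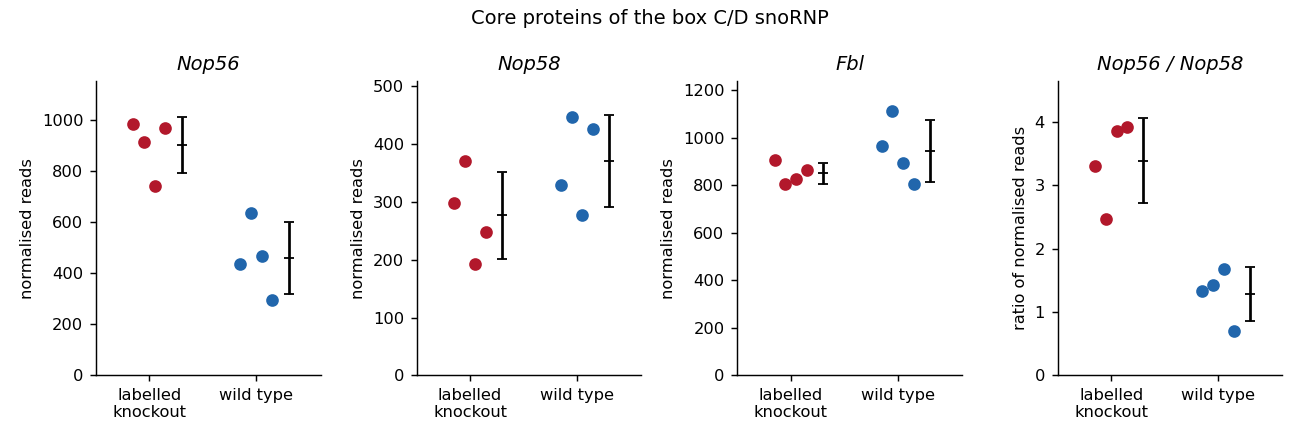
Normalised reads of Nop56, Nop58 and Fbl and the ratio of Nop56 to Nop58 in each library, with the mean and SD of 4 libraries beside the points. KO-labelled libraries lie above the wild type libraries for Nop56 and for the ratio, and the groups overlap for Nop58 and Fbl.

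Both Nop56 and Nop58 host snoRNA genes, 5 and 4 of them in GENCODE M21. One guide RNA from each host is shown because the proteins of the hosts bind RNAs of this form, and in each case it is one in which the search found both boxes (in Snord57 and Snord70, of the same hosts, it found box D only). Capitals mark a box C (ATGATGA or GTGATGA) near the 5′ end and the last box D (CTGA), both found by a search of the mm10 sequence on the strand of the snoRNA. Snord110 lies at chr2:130275506-130275573 (plus strand) in Nop56, and Snord11 at chr1:59704790-59704873 (plus strand) in Nop58.
Snord110: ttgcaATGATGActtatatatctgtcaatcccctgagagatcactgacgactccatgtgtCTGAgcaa
Snord11: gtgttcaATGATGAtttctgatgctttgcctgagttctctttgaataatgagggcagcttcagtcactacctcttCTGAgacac
Hosting was common among the members. In all, 7 of 39 (17.9%) hold at least 1 annotated snoRNA, against 1.89% of the 10888 tested genes that could be annotated. The hosts are Nop56, Nop58, Ncl, Gnl3, Wdr43, Ppan and Dkc1, with 21 snoRNAs together. By value 3 of these hosts had log2 changes above 0 and 4 below 0. Reads of a snoRNA that overlaps an exon of its host cannot be separated from the host in these values.

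Among 5 abundant nucleolar proteins and regulators, Mybbp1a rose and 4 did not pass. Mybbp1a lies at chr11:72441355-72451768 on the plus strand (mm10, protein-coding). Mybbp1a, which binds the transcription factor MYB and also sits in the nucleolus, had 525.0, 422.7, 278.3 and 396.3 normalised reads in KO-labelled libraries, against 176.2, 231.6, 190.4 and 197.3 in wild type libraries. Every library labelled knockout exceeded every wild type library, and the wild type values were close together. The means were 406 ± 101 in KO-labelled libraries and 199 ± 23.5 in wild type libraries (SD, n = 4 each), a log2 change of 0.996 ± 0.27 (SE; 95% interval 0.42 to 1.57; limma adjusted p = 0.0494; exact permutation p = 0.0286).

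That adjusted p lies just under the threshold. It was 0.0498 without KO-labelled library 3 (a fit that called 1.38% of genes) and 0.0230 without wild type library 2 (8.15% of genes). It missed the threshold at 0.184, 0.129 and 0.106 without KO-labelled libraries 1, 2 and 4, and at 0.104, 0.105 and 0.0978 without wild type libraries 1, 3 and 4. With the GC and length trend removed the log2 change of Mybbp1a was 0.72 (limma adjusted p = 0.295), with TMM rescaling its adjusted p was 0.0503, and with no filter on low values 0.0560. Exons of Mybbp1a share 131 bases with those of Spns2 on the opposite strand, and those reads cannot be assigned.

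Gnl3 (chr14:31012433-31019152, minus strand), which encodes nucleostemin, a GTP-binding nucleolar protein known from stem and progenitor cells, had 382.1, 463.8, 376.4 and 452.8 normalised reads in KO-labelled libraries, against 839.0, 511.4, 779.7 and 628.8 in wild type libraries. The groups did not overlap, and the log2 change of -0.70 ± 0.22 (SE, 0.616-fold) did not pass (limma adjusted p = 0.0899; exact permutation p = 0.0286). It passed without wild type library 2 (limma adjusted p = 0.0235, a fit that called 8.15% of genes) and with DESeq2 (adjusted p = 0.0305). Ddx21, an RNA helicase of the nucleolus, had 285.8, 152.1, 384.3 and 461.1 in KO-labelled libraries, against 321.0, 710.5, 681.0 and 407.4 in wild type libraries, and the groups overlapped (log2 change -0.76 ± 0.34 SE, limma adjusted p = 0.221).

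The members with the most normalised reads, not divided by length, were the multifunctional nucleolar proteins nucleophosmin (Npm1) and nucleolin (Ncl), and neither passed. Npm1 had 5916.3, 5748.2, 6687.4 and 4970.4 normalised reads in KO-labelled libraries, against 7739.2, 6968.6, 6020.2 and 5495.6 in wild type libraries. The log2 change of Npm1 was -0.16 ± 0.15 (SE; 95% interval -0.48 to 0.15; limma adjusted p = 0.573), and 0.28 with the GC and length trend removed. Npm1 has processed pseudogenes, so some of its reads may be shared with copies. Ncl had 1946.8, 1345.4, 1157.4 and 1932.4 in KO-labelled libraries, against 2347.2, 1924.5, 1052.9 and 995.4 in wild type libraries, with full overlap (log2 change 0.08 ± 0.26 SE, limma adjusted p = 0.904).

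The box H/ACA snoRNP guides pseudouridylation of ribosomal RNA, and its proteins are also part of telomerase. None of the 5 members of this role passed with limma, edgeR or DESeq2. Gar1 and Nop10, both lower by value, stood at an unadjusted p under 0.05 (2 of 5). Gar1 had 56.9, 47.4, 44.2 and 118.5 normalised reads in KO-labelled libraries, against 336.3, 92.6, 88.7 and 162.5 in wild type libraries. KO-labelled library 4 was high for its group and overlapped the wild type values, and wild type library 1 was high for its own. The log2 change of Gar1 was -1.23 ± 0.50 (SE; limma adjusted p = 0.182), -0.83 without wild type library 1, and -1.66 with the GC and length trend removed (limma adjusted p = 0.186). Nop10 (chr2:112261926-112263269, plus strand) had 290.2, 382.8, 348.1 and 397.2 in KO-labelled libraries, against 635.7, 407.0, 483.6 and 692.3 in wild type libraries. Its groups did not overlap (log2 change -0.62 ± 0.24 SE, 0.650-fold, limma adjusted p = 0.159, exact permutation p = 0.0286).

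The other members of the box H/ACA role differed less. Dkc1, the pseudouridine synthase dyskerin, averaged 479 ± 79.4 normalised reads in KO-labelled libraries and 509.6 ± 87.7 in wild type libraries (limma adjusted p = 0.870), and is the one member on chromosome X. Nhp2 averaged 391 ± 39.6 in KO-labelled libraries and 359 ± 124 in wild type libraries (limma adjusted p = 0.742). Nolc1, a chaperone of snoRNPs, averaged 265 ± 24.2 in KO-labelled libraries and 198 ± 38.4 in wild type libraries (limma adjusted p = 0.420). The ratio of Gar1 to Nhp2 reads had the largest log2 difference among the box H/ACA pairs on the deposited values. Its means were 0.177 ± 0.107 in KO-labelled libraries and 0.490 ± 0.270 in wild type libraries (SD, n = 4 each; exact permutation p = 0.0571, adjusted over the 15 pairs 0.214). With the GC and length trend removed, the ratio of Dkc1 to Gar1 had the largest, at 1.93 (exact permutation p = 0.0286, not adjusted over the pairs). On the deposited values that difference was 1.15 (exact permutation p = 0.114). The difference of Gar1 to Nhp2 was -1.64 with the trend removed (exact permutation p = 0.0571).

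RNA polymerase I and its factors were represented by 4 members, all with log2 changes above 0 (with the GC and length trend removed, Tcof1 was at -0.17). None passed with limma, edgeR or DESeq2, and 0 stood at an unadjusted p under 0.05. The member of smallest p was Polr1e, a subunit that acts in initiation, with 199.8, 132.2, 241.2 and 107.4 normalised reads in KO-labelled libraries, against 97.5, 211.9, 98.7 and 46.1 in wild type libraries. Wild type library 2 lay among the KO-labelled libraries (log2 change 0.71 ± 0.45 SE, 95% interval -0.24 to 1.66, limma adjusted p = 0.406). Polr1b, the second largest subunit, averaged 187 ± 63.5 in KO-labelled libraries and 142 ± 99.2 in wild type libraries (limma adjusted p = 0.494). Polr1a, the largest subunit, averaged 202 ± 137 in KO-labelled libraries and 153 ± 61.4 in wild type libraries (limma adjusted p = 0.834), and its direction turned when KO-labelled library 4 was left out (log2 change -0.17). Tcof1, the treacle protein that aids polymerase I, averaged 244 ± 31.4 in KO-labelled libraries and 199 ± 54.6 in wild type libraries (limma adjusted p = 0.584).

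Small subunit assembly was represented by 7 members, none of which passed with limma or edgeR, with 2 at an unadjusted p under 0.05. Wdr43 (chr17:71615895-71659031, plus strand), a subunit of the complex that binds the nascent ribosomal RNA precursor, came nearest with the smallest adjusted p of all members that did not pass. It had 338.3, 165.8, 265.9 and 225.9 normalised reads in KO-labelled libraries, against 383.7, 490.7, 500.5 and 448.2 in wild type libraries, and the groups did not overlap. The means were 249 ± 72.4 in KO-labelled libraries and 456 ± 53.2 in wild type libraries (SD, n = 4 each), a log2 change of -0.91 ± 0.27 (SE; 95% interval -1.47 to -0.35; limma adjusted p = 0.0660; exact permutation p = 0.0286). DESeq2 on the recovered reads called it (adjusted p = 0.0281), and with the GC and length trend removed the log2 change was -0.61 (limma adjusted p = 0.398).

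The remaining 6 small subunit members all had log2 changes above 0 (with the GC and length trend removed, Rrp12 was at -0.28). Noc4l, a nucleolar complex protein, was the highest of them, averaging 264 ± 45.2 normalised reads in KO-labelled libraries and 155 ± 69.5 in wild type libraries (log2 change 0.90 ± 0.38 SE, limma adjusted p = 0.195). Utp20, a large scaffold of the processome, had 211.5, 54.9, 47.7 and 76.9 in KO-labelled libraries, against 44.6, 53.2, 41.9 and 49.1 in wild type libraries, so that its mean rested on KO-labelled library 1 (limma adjusted p = 0.471). Heatr1, Nop14, Bysl and Rrp12, which act in processing and export of the small subunit precursor, had log2 changes of 0.33, 0.29, 0.33 and 0.12 (limma adjusted p of 0.676 to 0.953). Rrp12 had the fewest normalised reads of all members, not divided by length, with 8.7 in KO-labelled library 2. Bysl shares 361 exon bases with Ccnd3 on the opposite strand.

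Large subunit assembly was the role with the most members, 13, and none passed with limma, edgeR or DESeq2, with 3 at an unadjusted p under 0.05. Log2 changes were above 0 in 9 of them and the median was 0.54, and 0.15 with the GC and length trend removed, where Noc2l (-0.12) and Nip7 (0.019) changed side. Ppan (chr9:20888175-20892178, plus strand), a factor of large subunit precursor maturation, had 589.1, 685.8, 793.4 and 626.9 normalised reads in KO-labelled libraries, against 339.8, 305.5, 570.3 and 491.3 in wild type libraries. Its groups did not overlap (log2 change 0.70 ± 0.24 SE, 1.62-fold, limma adjusted p = 0.114, exact permutation p = 0.0286). With the GC and length trend removed the log2 change of Ppan was 0.15. Rrp1b had the highest log2 change of all members, with 129.8, 56.1, 137.8 and 142.6 in KO-labelled libraries, against 50.8, 37.4, 57.8 and 65.8 in wild type libraries. KO-labelled library 2 lay among the wild type values, and the change of 1.06 ± 0.48 (SE) did not pass (limma adjusted p = 0.232).

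Pes1, Bop1 and Wdr12 form the PeBoW complex, which is needed for processing of the large subunit RNAs, and all 3 had log2 changes above 0. Pes1 had 466.7, 463.8, 441.8 and 325.9 normalised reads in KO-labelled libraries, against 298.0, 335.0, 264.2 and 260.8 in wild type libraries. KO-labelled libraries 1, 2 and 3 lay above all wild type libraries and KO-labelled library 4 lay just below the highest of them (log2 change 0.54 ± 0.24 SE, limma adjusted p = 0.225). Bop1 averaged 135 ± 41.4 in KO-labelled libraries and 87.2 ± 25.4 in wild type libraries (limma adjusted p = 0.433). Wdr12 averaged 517 ± 172 in KO-labelled libraries and 397 ± 98.1 in wild type libraries (limma adjusted p = 0.471), with 774.0 in KO-labelled library 3. The log2 change of Wdr12 was 0.36, and 0.94 with the GC and length trend removed (limma adjusted p = 0.159, unadjusted 0.00258). No ratio among these 3 genes passed its test (exact permutation p of 0.629 to 0.857).

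Nop2, an RNA methyltransferase, had a log2 change of 0.86 ± 0.42 (SE), Wdr74 of 0.64 ± 0.33, Nop16 of 0.58 ± 0.31 and Noc2l of 0.30 ± 0.22 (limma adjusted p of 0.264 to 0.484). Noc2l shares 598 exon bases with Samd11 on the opposite strand. The other 4 large subunit members lay below 0. Their log2 changes were -0.20 in Nip7, -0.29 in Ebna1bp2, -0.42 in the helicase Ddx18 and -0.53 in Rrs1 (limma adjusted p of 0.455 to 0.753).

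Srm encodes spermidine synthase, an enzyme of polyamine synthesis and a known MYC target, and is the one member that is not a nucleolar factor. It had 837.1, 748.1, 793.4 and 649.1 normalised reads in KO-labelled libraries, against 375.3, 456.2, 247.3 and 702.9 in wild type libraries. Wild type library 4 alone reached into the range of the KO-labelled libraries. The means were 757 ± 80.5 in KO-labelled libraries and 445 ± 192 in wild type libraries (SD, n = 4 each), a log2 change of 0.86 ± 0.27 (SE, 1.81-fold) that did not pass (limma adjusted p = 0.0828). It passed without wild type library 2 (0.0470, a fit that called 8.15% of genes) and without wild type library 4 (0.0387, 1.44% of genes). With the GC and length trend removed its log2 change was 0.34 (limma adjusted p = 0.635).

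**Figure D3:**
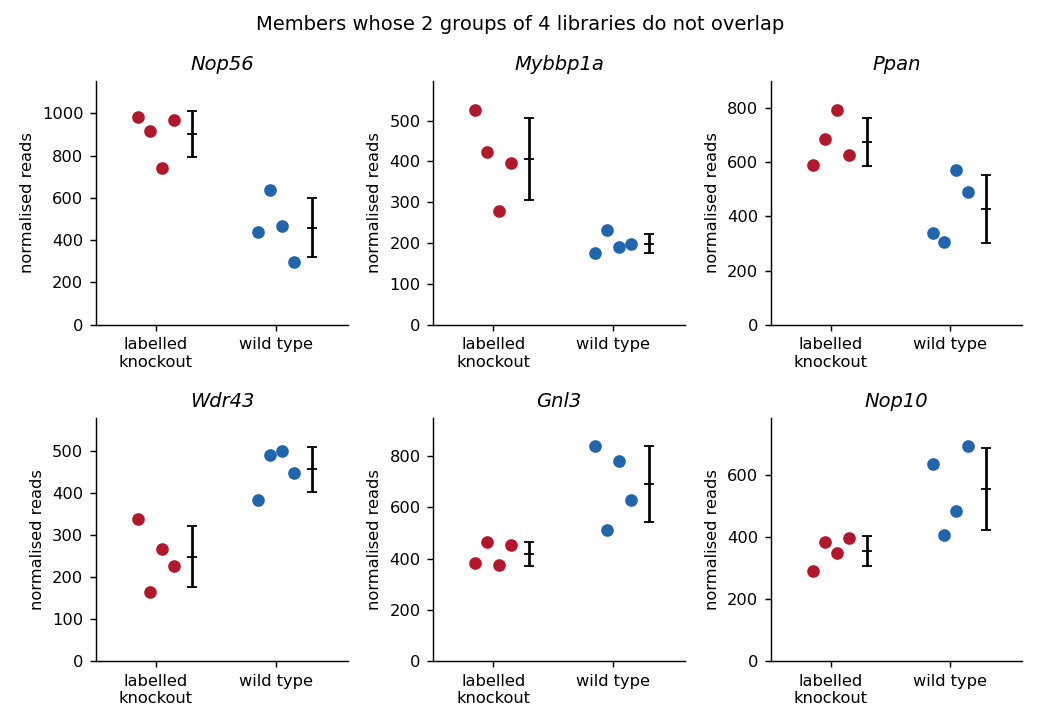
Normalised reads per library of the 6 genes whose groups do not overlap, with the mean and SD of 4 libraries beside the points. Nop56, Mybbp1a and Ppan are higher, and Wdr43, Gnl3 and Nop10 lower, in all 4 KO-labelled libraries than in all 4 wild type libraries.

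Levels can be compared between genes only per transcript length. Length and GC content were taken from the longest protein-coding transcript, of 8202 bases in Ncl, 9507 in Nop58 and 10012 in Wdr12. Whether that transcript is the one used in these cells was not tested. Per kilobase of the longest annotated transcript, Npm1 led with 3570 normalised reads in KO-labelled libraries and 4015 in wild type libraries, above 99.53% of tested genes over all 8 libraries. Fbl followed with 711 per kilobase in KO-labelled libraries and 789 in wild type libraries. Nop56 had 481 per kilobase in KO-labelled libraries and 245 in wild type libraries, which put it in place 4 of 39 in KO-labelled libraries and place 9 in wild type libraries. Gar1 had 52.5 per kilobase in KO-labelled libraries and 134 in wild type libraries, places 29 and 12 in that order. At the low end stood Utp20 (11.1 in KO-labelled libraries and 5.35 in wild type libraries), Rrp12 (7.37 and 5.70) and Heatr1 (11.6 and 9.42). The order of the 39 levels was much the same in both groups (Spearman correlation over genes 0.905, n = 39, as a description). Over all 8 libraries 31 members lay above the median tested gene, and the median level was 93.1 per kilobase for the members and 43.4 for all tested genes.

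Libraries of the same group differed in the level of the members as a whole. The median deviation of the 39 genes from their means over all libraries was 0.30, -0.06, 0.03 and 0.21 on the log2 scale in KO-labelled libraries 1 to 4, against -0.22, 0.09, -0.17 and -0.16 in wild type libraries. KO-labelled libraries 1 and 4 were high, and KO-labelled libraries 2 and 3 lay below wild type library 2. As a share of all reads the members took 0.606%, 0.553%, 0.548% and 0.578% in KO-labelled libraries, against 0.619%, 0.631%, 0.511% and 0.490% in wild type libraries, and these ranges overlapped. Summed levels are led by Npm1, whose value was higher in wild type on average.

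**Figure D4:**
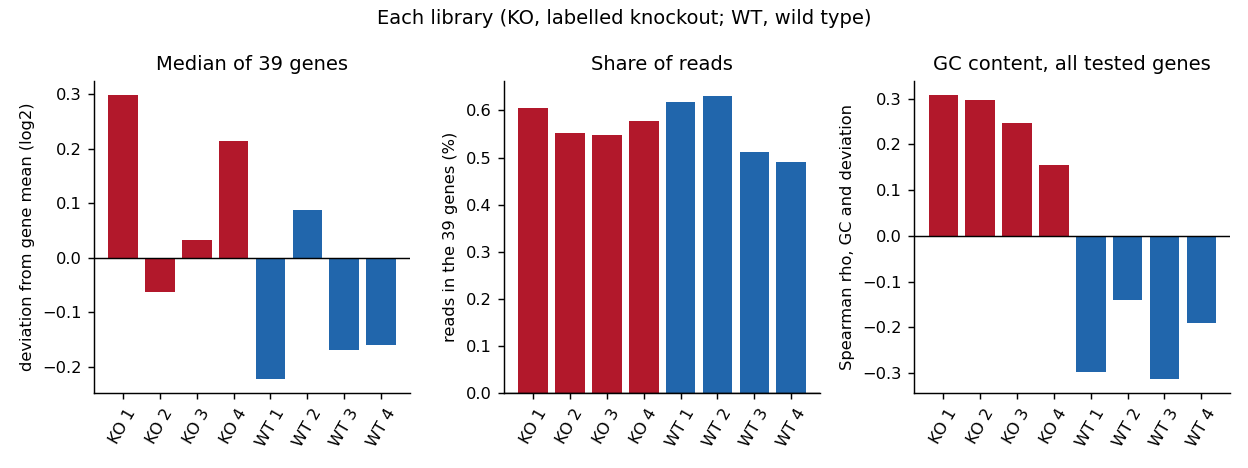
For each library, the median log2 deviation of the 39 genes from their means, their share of all reads in percent, and the Spearman correlation over tested genes between GC content and the deviation from the gene mean. The first 2 measures overlap between the groups, and the third is 0.155 to 0.307 in KO-labelled libraries and -0.313 to -0.141 in wild type libraries.

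Transcript GC content was related to the genotype labels over all genes, and to the log2 changes among the members. Across tested genes, GC content correlated with the deviation of a library from the gene mean, and that correlation was positive in all 4 KO-labelled libraries and negative in all 4 wild type libraries. Over the 39 members, whose GC content was 40.35% to 59.79% with a median of 51.09% (49.94% for tested genes), the Spearman correlation of GC content with the log2 change was 0.405, against 0.461 over 10888 tested genes. The 19 members above their median GC content had a median log2 change of 0.49, with 16 above 0. The 19 members below it had a median of -0.09, with 9 above 0. Of the genes whose groups did not overlap, Ppan had a GC content of 59.70%, Mybbp1a 53.72%, Nop56 50.45% and Wdr43 44.29%. After the GC and length trend was removed from each library, the correlation over the members was -0.126, their median log2 change 0.15 and the number above 0 was 25. No member passed that fit with limma (24 of 10888 genes did, 0.220%). At an unadjusted p under 0.05 in that fit stood 6 members. Nop56, Mybbp1a and Wdr12 were higher, and Gar1, Fbl and Wdr43 lower. The share of all genes at that level in that fit is not given here, so the 6 cannot be called many or few. With wild type library 2 also left out, an alternative chosen after seeing the data, Nop56 passed (limma adjusted p = 0.00853, background 1.95%). The part of GC content in the members' changes was not tested beyond this removal.

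**Figure D5:**
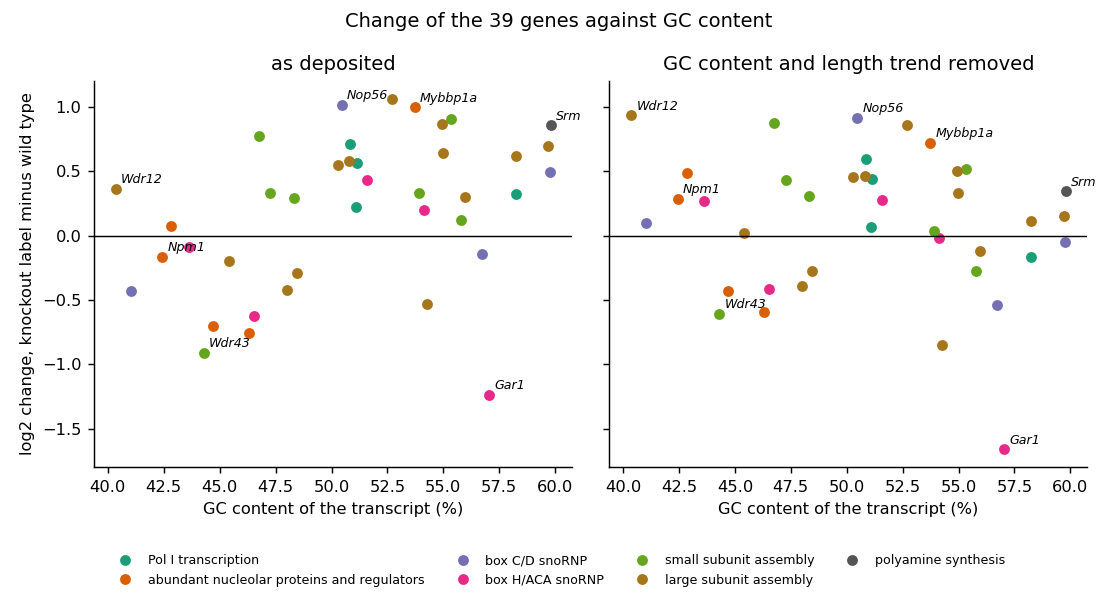
Log2 change of the 39 genes, KO-labelled libraries minus wild type, against the GC content of the longest transcript in percent, as deposited (left) and with the GC and length trend removed (right), coloured by role. The rank correlation is 0.405 on the left and -0.126 on the right, and Nop56 stands at 1.01 on the left and 0.91 on the right.

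Promoter sequence is shown because several members are known MYC targets and MYC binds the E-box CACGTG. RefSeq windows (GRCm38.p6) from 250 bases before to 50 bases after the start site were matched for 32 of the 39 members and searched on both strands for 4 motifs, none of which contains another. CACGTG was found in 5 of 32 members, or 15.6%, against 10.6% of the 8308 windows of tested genes and 7.2% of all 27025 windows. The E-box begins after the start site in Mybbp1a (base 41), Utp20 (38), Wdr43 (18) and Pes1 (3), and before it in Nop2 (-60). The 5 windows are printed on the strand of the gene, with the E-box in capitals. They lie at chr11:72441347-72441376 (plus strand, Mybbp1a), chr10:88826765-88826794 (minus strand, Utp20), chr17:71616220-71616249 (plus strand, Wdr43), chr11:3963965-3963994 (plus strand, Pes1) and chr6:125131811-125131840 (plus strand, Nop2).
Mybbp1a: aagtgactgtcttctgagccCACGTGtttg
Utp20: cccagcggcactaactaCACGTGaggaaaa
Wdr43: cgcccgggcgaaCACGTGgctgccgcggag
Pes1: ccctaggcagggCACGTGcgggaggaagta
Nop2: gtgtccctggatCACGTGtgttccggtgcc
Of these genes 4 had log2 changes above 0 and Wdr43 lay below 0. The other motifs were CCAAT in 31.2% of members (39.2% of windows of tested genes), CCGGAAG, a site of ETS factors, in 34.4% (19.7%) and GGGCGG, the GC box, in 75.0% (66.4%). Nop56 has no E-box in its window. The 100 bases before its start site, at chr2:130274312-130274411 (plus strand), hold a CCAAT box on the opposite strand, printed in capitals.
Nop56: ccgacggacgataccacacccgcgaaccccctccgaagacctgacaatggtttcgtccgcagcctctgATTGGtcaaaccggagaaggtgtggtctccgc
Myc itself averaged 387 ± 69.1 normalised reads in KO-labelled libraries and 406 ± 156 in wild type libraries (log2 change 0.01, limma adjusted p = 0.994).

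The wider pathway was described from 138 other genes, of which 133 were tested. Of these 3 rose and 3 fell, or 4.51% against the background of 3.80%, and their median log2 change was 0.04. Each of the 6 lost its call with the GC and length trend removed, and each passed in 2 to 5 of the 8 fits without 1 library. Of the 14 other snoRNP proteins and assembly factors 2 rose and 1 fell. Pih1d1 and Ruvbl2, both known as subunits of the R2TP chaperone, rose, and its other subunits on that list did not pass (Ruvbl1, log2 change 0.23, limma adjusted p = 0.576, and Rpap3, 0.20, limma adjusted p = 0.860). Pih1d1 averaged 358 ± 62.4 in KO-labelled libraries and 144 ± 31.1 in wild type libraries (log2 change 1.32, limma adjusted p = 0.0207). Ruvbl2 averaged 954 ± 145 in KO-labelled libraries and 519 ± 56.2 in wild type libraries (log2 change 0.87, limma adjusted p = 0.0236). Naf1, the assembly factor of the H/ACA particle whose place Gar1 takes in the mature particle, had 23.3, 27.4, 14.1 and 18.5 normalised reads in KO-labelled libraries, against 234.6, 79.8, 72.8 and 247.9 in wild type libraries. No Naf1 value overlapped between the groups (log2 change -2.69, limma adjusted p = 0.0219), and its log2 change was -2.65 with the GC and length trend removed (limma adjusted p = 0.0722).

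In the assembly lists, 1 of 43 other small subunit factors rose, Rrp7a (350.5 ± 85.4 normalised reads in KO-labelled libraries and 143 ± 56.4 in wild type libraries, limma adjusted p = 0.0360). Of 47 other large subunit factors Brix1 fell (122 ± 28.9 in KO-labelled libraries and 295 ± 59.3 in wild type libraries, limma adjusted p = 0.0340). Of 13 genes of the RNA exosome list, C1d fell (144 ± 57.4 in KO-labelled libraries and 395 ± 49.0 in wild type libraries, limma adjusted p = 0.0160). None of the 16 other polymerase I genes passed with limma or edgeR, DESeq2 called 1, and 2 stood at an unadjusted p under 0.05. The smallest p there was that of Taf1d (log2 change -1.12, limma adjusted p = 0.122).

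Other lists were read beside these results, and their part in them was not tested. Over all genes tested, limma called 3.80% (1.68% higher and 2.12% lower), edgeR 3.10% and DESeq2 7.39%. At an unadjusted p under 0.05 stood 19.7% of all genes, and 51.3% had log2 changes above 0. Of 20 genes of cycling cells none passed with limma or edgeR, DESeq2 called 1, 5 stood at an unadjusted p under 0.05 and 16 were above 0, with a median log2 change of 0.35. Their summed level was 10710 to 15881 in KO-labelled libraries and 5412 to 12140 in wild type libraries, led by Pcna, Mcm6 and Mcm5. Of 12 megakaryocyte and platelet genes 10 were tested and 4 rose (Itga2b, Gp9, Vwf and Pf4, none past the test with the GC and length trend removed, limma adjusted p of 0.0834 to 0.530, and past it in 8, 6, 3 and 1 of the 8 fits without 1 library), with summed levels of 4526 to 5465 in KO-labelled libraries and 3750 to 4875 in wild type libraries. Of 10 erythroid genes 6 were in the table and 4 were tested, with 2 of these above 0. Klf1 rose (limma adjusted p = 0.156 with the trend removed, past the test in 1 of the 8 fits without 1 library). Its values were 24.9 to 85.7 in KO-labelled libraries and 0 to 2.99, near the floor, in wild type libraries. The sums of the erythroid list were 364 to 542 in KO-labelled libraries and 240 to 571 in wild type libraries. Of 12 neutrophil and monocyte genes 2 were in the table (Lyz2 and Prtn3), with sums of 2240 to 3675 in KO-labelled libraries and 2573 to 5541 in wild type libraries. None passed with limma, edgeR or DESeq2, and 1 stood at an unadjusted p under 0.05. Of 12 B and T cell genes 3 were in the table and 2 were tested, with sums of 231 to 386 in KO-labelled libraries and 289 to 7606 in wild type libraries. None passed with limma or edgeR, DESeq2 called 1, and both stood at an unadjusted p under 0.05. Ighm was 0 to 166 in KO-labelled libraries and 38.4 to 6740 in wild type libraries.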

How the data were processed

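Per the labels' protocols, polyadenylated RNA was made into Nextera XT libraries, a kit that does not mark strand. The submitters' processing notes name HISAT2, featureCounts (Subread), DESeq2, bcl2fastq and the mm10 build. Their versions and settings are not given in the sources used here. A table of normalised signal per gene was deposited by the authors. By its values this signal is whole reads scaled by a library size factor, since in each library 100% of values were whole multiples of 1 step (tolerance 0.001). Of 11855 entries 1 has no name (0.000401% of values) and was left out, and 17 date-like names were kept. Precision is limited by 4 libraries a group and 2296101 to 4769401 reads per library. Nothing beyond separate mice is stated of the replicates.

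Values were compared as log2(value + 1) with limma 3.58.1 (eBayes, trend and robust, R 4.3.3) for genes with at least 10 in at least 4 libraries (10989 tested), KO-labelled libraries minus wild type. The script was tested on simulated data. Exact permutation tests were two-sided. Alternatives were an added value of 5, no filter, TMM and upper quartile rescaling, edgeR 4.0.16 and DESeq2 1.42.0 on the recovered reads, a replicate block, leaving out each library, and removing a spline trend (5 degrees of freedom) in GC content and length (GENCODE M21, longest protein-coding transcript).

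The members and lists were chosen with earlier results of these data known. Each called member is named with all its values, as are, in a role without one, the member of smallest p, the 2 most abundant members and the one of widest spread. The called genes of each wider list (at most 4) or its gene of smallest p are also named. Other members shown in full and the ratios were chosen after their values were seen.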

Additional observations from a re-analysis of the deposited data

Results flagged for a closer look

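Across 78 groups of 4 libraries (39 genes, both groups), 6 held a library far from its 3 companions, by Dixon's 95% criterion. Chance marks about 1 group in 20. Among KO-labelled libraries, Gar1 was 118.5 normalised reads in library 4 (next 56.9), Noc4l 197.0 in library 3 (next 279.3), Wdr12 774.0 in library 3 (next 458.3) and Rrp1b 56.1 in library 2 (next 129.8). Among wild type libraries, Dkc1 was 378.7 in library 4 (next 543.9) and Bysl 38.9 in library 3 (next 89.8). None of these genes is called, and the cause of the values was not tested.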

How the results depend on the processing

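Of the 39 members, 2 were called with an added value of 5 (4.43% of all genes), with upper quartile rescaling (3.83%) and with edgeR (3.10%), 1 with no filter (2.96%) and 1 with TMM rescaling (3.76%). DESeq2 called 4 members, 764 of all genes and 12 wider pathway genes. With the GC and length trend removed 0 members, 24 of all genes and 0 wider pathway genes were called with limma. Without removal 418 of all genes and 6 wider genes were called. At an unadjusted p under 0.05 with the trend removed stood 6 members and 14 wider genes, and the share of all genes is not given here. The members' median log2 change with the trend removed was 0.15. With the trend removed and wild type library 2 left out, chosen after seeing the data, 1 member (Nop56, adjusted p = 0.00853), 209 of all genes and 2 wider genes were called. Leaving out 1 library gave 0 to 4 members, 48 to 883 of all genes and 0 to 14 wider genes. No member was called without KO-labelled libraries 1, 2 or 4 or wild type libraries 1 or 3, and 4 were called without wild type library 2.

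The replicate numbers do not pair the libraries: deviations of same-numbered libraries correlated at -0.06 to 0.01. With the number as a replicate block 1 member (Nop56), 277 of all genes and 5 wider genes were called. With the block and the trend removed 0 members, 24 of all genes and 0 wider genes were called, and the median was 0.15.

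Of 702 single-gene values under the alternatives, 641 kept direction and side of the threshold, 20 lost the call, 5 gained one and 36, in 12 members, turned direction. With the trend removed, with or without the block, the log2 change was -0.17 in Tcof1, 0.28 in Npm1, 0.10 in Nop58, -0.047 in Rrp9, 0.27 in Dkc1, -0.017 in Nhp2, -0.28 in Rrp12, 0.019 in Nip7 and -0.12 in Noc2l. With wild type library 2 also left out it was -0.30 in Tcof1, 0.38 in Npm1, 0.26 in Nop58, 0.37 in Dkc1, -0.27 in Nhp2, -0.26 in Rrp12 and 0.047 in Nip7. Leaving out 1 library in turn gave log2 changes on both sides of 0 in Polr1a (-0.17 to 0.59), Ncl (-0.11 to 0.30), Rrp12 (-0.21 to 0.63), Nhp2 (-0.10 to 0.35), Bysl (-0.052 to 0.78) and Nip7 (-0.38 to 0.019). The cause was not tested.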

Other observations

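Genes outside the group with the most similar profile over the 8 libraries to the mean of the 39 members were Tmem259 (Pearson correlation 0.952), Atp11a (0.943), Jmjd8 (0.941), Ahsa1 (0.939) and Wars (0.937). Their own log2 changes were 0.58, 0.61, 0.56, 0.54 and 0.35 in that order, and none passed (limma adjusted p of 0.191 to 0.522).

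Among 16 genes of the MYC network and growth regulators none passed with limma, edgeR or DESeq2. At an unadjusted p under 0.05 stood 3 of them (19.7% of all genes tested). Cad, the multifunctional enzyme that starts pyrimidine synthesis, had the smallest p, with 487 ± 67.3 normalised reads in KO-labelled libraries and 269 ± 173 in wild type libraries (SD, n = 4 each; log2 change 1.09, limma adjusted p = 0.111). The list's median log2 change was 0.00, and its members lay on both sides of 0, with 9 of 16 above (51.3% of all genes).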
